A study of Mus musculus with 16 samples.

Results

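Skin tumors arising in mice without epidermal p53 were compared with normal skin. The samples were taken by their titles, and comprised the 7 tumors titled p53_tumor1 to p53_tumor7 and the 4 samples titled Control_skin_1 to Control_skin_4, which are 11 of the 16 samples of the series. The other 5 samples are pRbp53 tumors, which lack the retinoblastoma protein pRb as well as p53, and they entered only where the genotypes were set against each other. All mice were of the FVB strain. The p53 tumors arose spontaneously in k14Cre;p53loxP/loxP mice, in which Cre recombinase, driven by the keratin 14 promoter, removes both floxed p53 alleles in stratified epithelia and not in the other cells that a tumor sample holds. The pRbp53 mice carried floxed pRb alleles in addition. Control skin was wild type and came from adult mice, per the study. All tumors were labelled as squamous cell carcinoma, with a histological subtype for each. Tumors 2, 4 and 5 were poorly differentiated, tumors 1 and 7 were mixed, tumor 3 was undifferentiated and tumor 6 was a spindle cell carcinoma. Age at sampling, body site and sex of the p53 mice were not given in the sources used here.

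In normal cells p53 acts as a transcription factor, is stabilised by DNA damage and other stress, and switches on genes that arrest the cell cycle, start apoptosis or repair DNA. It also induces Mdm2, the ubiquitin ligase that leads to its own degradation. Normal epidermis renews itself from a basal layer of keratinocytes marked by keratins 5 and 14. Their daughters leave the cell cycle, turn on keratins 1 and 10 and build the cornified envelope, and carcinomas of the skin lose this programme to different degrees as they become less differentiated.

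Total RNA of each sample was hybridised to 1 Affymetrix mouse genome-wide expression array, and the values are RMA log2 signals, so that a difference of 1 is a factor of 2. Median signals over all probesets lay between 5.63 and 5.76 on the 11 arrays. Control skin 3 and p53 tumor 7 stood apart in the actin control probesets, with 3′ minus 5′ log2 signals of 1.33 and 1.67 against 0.21 to 0.60 on the other 9 arrays, a sign of more degraded RNA. Xist, which is made from the inactive X chromosome of females, read 5.13 to 5.96 in control skin 1, tumor 6 and tumor 7, 7.39 in control skin 3, and 11.40 to 12.19 on the other 7 arrays. Control skin 3 also carried milk protein transcripts and less adipocyte signal, as given with those genes. Control skin 2 and 4 were closer to each other than any other pair, with an SD of 0.22 between their log2 signals against 0.41 to 0.57 between the other control pairs. Nothing in the sources states that the samples came from separate animals, and p-values then measure the spread between these samples alone.

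Of 45037 probesets, 2137 (4.74%) were higher and 2663 (5.91%) were lower in p53 tumors than in control skin at an adjusted p of 0.05. Read as genes, with each gene taken from its brightest probeset, 1084 of 18193 (5.96%) were overexpressed and 1442 (7.93%) were underexpressed. Both shares apply to each list count below, and a count near them says little about that list. Every p53 tumor lay above every control sample in 1183 genes (6.50%) and below every control sample in 1345 genes (7.39%). The falls were larger than the rises. Among called genes, 127 rose and 677 fell by over 2 on the log2 scale, while 4 rose and 216 fell by over 4. The median difference over all genes was 0.06. The tumors were less alike than the controls, with a median SD of 0.41 among the 7 tumors against 0.20 among the 4 controls, and 77.7% of genes varied more among the tumors. In tissue samples like these, fewer cells of a type and less RNA per cell cannot be told apart.

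The genes with the largest rises, among those in which no tumor overlapped the controls, were epithelial, matrix, mitotic and immune. Krt18, a keratin of simple epithelia that normal epidermis does not use, read 4.35, 4.19, 6.60 and 4.05 in control skin 1 to 4, and between 7.95 and 13.22 in the tumors with a median of 10.40. All tumors exceeded the controls, and the 3 poorly differentiated tumors were the highest. The difference was 5.68 ± 0.99 (SE, 51.2-fold, adjusted p = 0.00424). Mmp13, a collagenase, read 3.68, 3.38, 3.90 and 3.77 in the controls and from 5.45 to 12 (median 7.28) in the tumors. It was lowest in the poorly differentiated tumors 2 and 5 and highest in the undifferentiated tumor 3, and differed by 4.20 ± 1.10 (SE, adjusted p = 0.0332). The call was lost without any single control sample and without tumor 6 (adjusted p up to 0.0921). Timp1, an inhibitor of such enzymes, read 6.63, 6.32, 6.98 and 6.40 in the controls and from 7.35 to 11.85 (median 9.88) in the tumors. Tumors 3 and 6, undifferentiated and spindle, were again the highest, and the difference was 3.35 ± 0.77 (SE, adjusted p = 0.0185), which did not pass without control skin 1, 2 or 4 (adjusted p up to 0.0597).

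Plod2, which hydroxylates lysines of collagen for crosslinking, rose on both of its probesets. It read 4.59, 6.13, 5.61 and 7.13 in control skin and 8.26 to 10.66 (median 9.35) in the tumors, a difference of 3.75 ± 0.52 (SE, adjusted p = 0.00101). No tumor overlapped the controls, although the range of the controls was as wide as that of the tumors. Of the chemokine receptors, Cxcr4 rose by 3.21 (9.24-fold, adjusted p = 0.00407), from 5.19 to 6.17 in the controls to 7.48 to 10.68 in the tumors. Vcam1, an adhesion molecule for leukocytes, rose by 3.39 (adjusted p = 0.0293) and was lowest in poorly differentiated tumor 2, at 6.50 against 6.32 in control skin 2. Kcnn4, a potassium channel, rose by 3.45 (adjusted p = 0.00926), Slpi, a secreted inhibitor of elastase, by 3.18 (adjusted p = 0.0145), and Gprc5a, an orphan receptor, by 3.04 (adjusted p = 0.0322). Of these, Vcam1 (adjusted p up to 0.0981) and Gprc5a (up to 0.099) lost the call without any single control sample, Vcam1 also without tumor 6 and Gprc5a also without tumor 3, 4 or 6. Xaf1, an interferon-induced gene, rose by 4.61 (adjusted p = 0.000406) from its brighter probeset, but its other probeset fell, so that its direction depends on the probeset read. The remaining 2 genes of the 12 largest rises, Bub1 and Birc5, belong to mitosis.

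**Figure D1:**
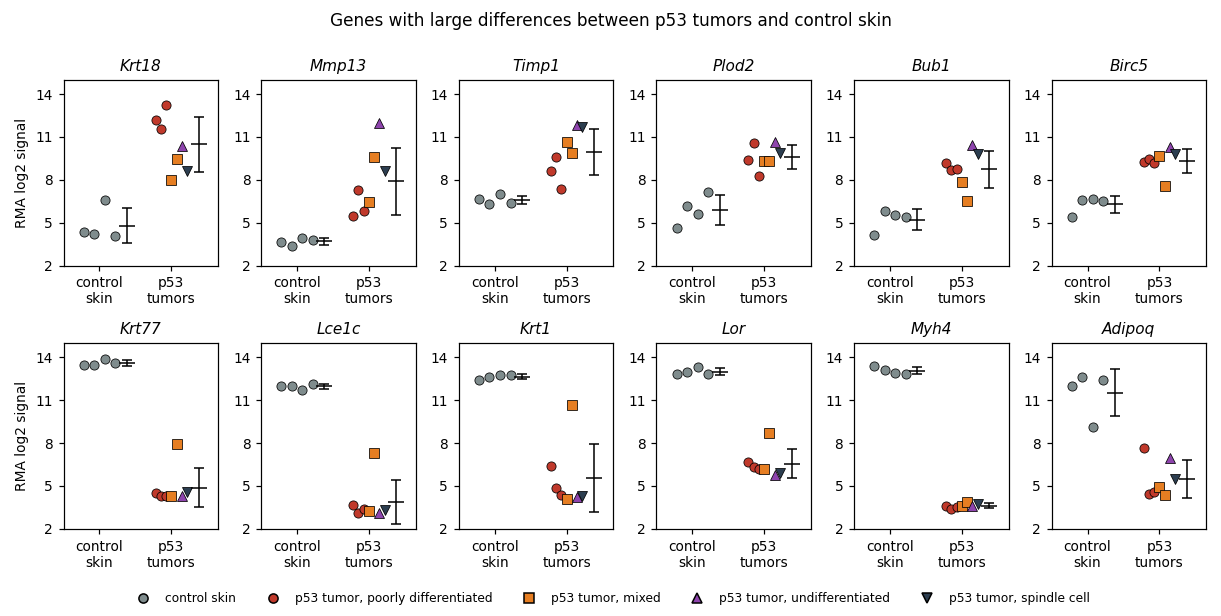
RMA log2 signal of 12 genes in each sample, with control skin on the left and p53 tumors on the right of each panel; marker shapes give the histological subtype, and bars give the mean ± SD of each group. Krt18 lies between 7.95 and 13.22 in the tumors, above all controls, and Krt77 and Lce1c are low in every tumor but highest in the mixed tumor 7.

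Genes of the cell cycle rose together. Of 19 measured mitotic kinases and checkpoint genes, 16 rose, none fell, and the median difference was 2.17, where 5.96% of all genes rose and their median was 0.06. Of 25 genes of the spindle, kinetochore and cytokinesis, 17 rose (median 1.78), of 10 genes of chromosome condensation 8 rose (median 2.06), of 29 replication genes 18 rose (median 1.38), and of 16 genes of recombination and Fanconi repair 9 rose (median 1.24). No member of these 5 lists fell. Of the 20 genes that the study had chosen as a tumor signature on other arrays, 18 rose, with a median of 2.09. These lists overlap, since Bub1, Birc5, Cdk1 and Top2a stand in the signature as well as in a mitotic list.

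Bub1, a kinase of the spindle checkpoint, read 4.14, 5.80, 5.51 and 5.40 in control skin 1 to 4 and 6.50 to 10.42 (median 8.72) in the tumors. The difference was 3.52 ± 0.66 (SE, 11.5-fold, adjusted p = 0.00623). Birc5, which encodes survivin of the chromosomal passenger complex, read 5.41, 6.56, 6.69 and 6.55 in the controls and 7.59 to 10.33 (median 9.44) in the tumors, a difference of 3.01 ± 0.45 (SE, adjusted p = 0.0016). In both genes tumor 3 was the highest, the mixed tumor 7 the lowest, and control skin 1 lay at least 1 unit below the other controls. Cdk1, the kinase that drives entry into mitosis, was likewise highest in tumor 3 and lowest in tumor 7, but the groups overlapped. It read 6.01, 7.22, 7.02 and 6.93 in the controls and 6.85 in tumor 7, with the other 6 tumors between 9.28 and 10.61. The difference was 2.61 ± 0.59 (SE, adjusted p = 0.0178), and it did not pass without control skin 1 (adjusted p = 0.0696).

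The level of the list of mitotic kinases, as the mean over its members, ran from 6.21 to 7.0 in control skin and from 7.09 in tumor 7 to 9.89 in tumor 3. All 7 tumors lay above all 4 controls in the mean level of each of the 5 cell cycle lists, with tumor 7 always the closest to the controls. Tumor 7 and control skin 3 are the arrays with the high actin ratio. Without both, 17 of the 19 mitotic kinases and checkpoint genes, 21 of the 25 spindle genes and 21 of the 29 replication genes rose. Without tumor 7 alone, 17, 23 and 27 rose. The counts hung more on the controls, and most on control skin 1, which was the lowest control in these lists. Without control skin 1, the counts fell to 5, 4 and 7 in that order, and to 4 of 10 for condensation, 4 of 16 for recombination and 6 of 20 for the signature. With control skin 2 and 4 averaged they were 10, 9 and 12. Over the members of all lists 103 genes rose, against 41, 63, 60 and 65 without control skin 1, 2, 3 or 4 in turn. Among the cell cycle genes that did not pass, Cdc20, the activator of the anaphase-promoting complex, differed by 1.58 with an adjusted p of 0.0501, and Ttk, a kinase of the spindle checkpoint, by -0.23.

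Other members rose by similar amounts. Rrm2, a subunit of ribonucleotide reductase, rose by 2.34 (adjusted p = 0.0162), the thymidine kinase Tk1 by 2.27 (adjusted p = 0.00183), Dut, which hydrolyses dUTP, by 2.0 (adjusted p = 0.00164) and the replication helicase factor Cdc45 by 1.81 (adjusted p = 0.00558). Of the spindle genes, the kinesins Kif20a and Kif11 rose by 2.53 and 2.35, the spindle assembly factor Tpx2 by 2.52 and the cytokinesis factor Ect2 by 2.39. Without control skin 1, the calls of Rrm2, Kif20a, Kif11 and Ect2 were lost (adjusted p up to 0.0649, 0.0928, 0.058 and 0.0533), and that of Kif20a also without control skin 2, 3 or 4. Of the repair genes, Brca1 rose by 2.40 (adjusted p = 0.0059), the ubiquitin ligase Rad18 by 2.38 (adjusted p = 0.000421) and Rad51ap1 by 2.33 (adjusted p = 0.0047). Rad18 lay at 4.95 to 5.99 in the controls and 7.12 to 8.57 in the tumors, and all 4 of its probesets rose.

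Many promoters of mitotic genes hold the cell cycle homology region, whose letters are TTTGAA, and CCAAT boxes, both read by complexes that control these genes over the cell cycle. Promoter sequences of RefSeq (build GRCm38.p6) were therefore searched on both strands over the 250 bases before the start of each gene. Of the 54 measured genes in the 3 mitotic lists, 46 had a promoter sequence, and TTTGAA or its complement TTCAAA was found in 17 of them (37.0%), against 16.3% of all 27025 promoters and 11.9% of the 14452 promoters of genes on the array. CCAAT or ATTGG was found in 30 (65.2%), against 34.5% and 35.7%. The E2F motif GCGGGAA or TTCCCGC was found in 2 (4.35%), against 3.84% and 5.71%. None of these motifs shares a base with another in the stretches shown. Among the 41 members that rose, 35 had a sequence and 13 of these (37.1%) held TTTGAA. A match is a description of the letters and not a measured site.

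The 3 overexpressed mitotic genes with the largest differences whose last 150 bases before the start hold TTTGAA on either strand follow, so that the motifs are seen in place. Ncapg encodes a subunit of condensin, Top2a encodes topoisomerase II alpha, and Cdk1 is described above. Capitals mark the motif TTTGAA and the box CCAAT on either strand, each sequence is 5′ to 3′ on the strand of the gene, and it ends at the base before the start.
Ncapg, chr5:45669775-45669924, plus strand: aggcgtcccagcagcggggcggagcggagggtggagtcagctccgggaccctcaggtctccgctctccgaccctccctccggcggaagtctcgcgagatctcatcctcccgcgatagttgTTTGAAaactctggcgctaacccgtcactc
Top2a, chr11:99024190-99024339, minus strand: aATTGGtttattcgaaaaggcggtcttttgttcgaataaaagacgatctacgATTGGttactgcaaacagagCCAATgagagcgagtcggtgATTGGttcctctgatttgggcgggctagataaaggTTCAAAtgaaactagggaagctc
Cdk1, chr10:69352913-69353062, minus strand: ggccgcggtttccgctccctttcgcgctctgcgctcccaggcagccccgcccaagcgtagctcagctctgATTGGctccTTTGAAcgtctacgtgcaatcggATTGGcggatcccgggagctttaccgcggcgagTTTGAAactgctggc

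In Ncapg the motif began 30 bases before the start, in Top2a 23 bases and in Cdk1 71 and 15 bases. The Top2a stretch also held 4 CCAAT boxes and the Cdk1 stretch 2, while the Ncapg stretch held no CCAAT letters. Ncapg read 3.51, 4.33, 4.59 and 4.44 in control skin 1 to 4 and 5.41 to 8.47 (median 7.0) in the tumors, with no overlap and a difference of 2.89 ± 0.53 (SE, adjusted p = 0.00549). Top2a read 6.84, 8.35, 8.45 and 8.14 in the controls and 8.24 to 13.07 (median 10.58) in the tumors. Tumor 7, at 8.24, fell among the controls, and the poorly differentiated tumors 4 and 2 were the highest. The Top2a difference was 2.77 ± 0.78 (SE, adjusted p = 0.045), from 1 of its 3 probesets. It was lost without any single control sample and without tumor 1, 2, 3 or 6 (adjusted p up to 0.147).

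Target genes of p53 were read in 3 lists. Of the 14 genes of arrest and feedback, 2 rose, 1 fell and 11 did not pass (median -0.15). Of the 12 measured genes of apoptosis, none rose and 1 fell (median -0.05), and of 11 measured genes of repair and metabolism none rose and 2 fell (median -0.27). The shares called were 3 of 14, 1 of 12 and 2 of 11, beside 5.96% of all genes that rose and 7.93% that fell. In the mean level of the repair and metabolism list, all 7 tumors (7.18 to 8.22) lay below all controls (8.46 to 8.57). In that of apoptosis, 5 tumors lay below all controls and 1 above (7.13 to 7.93 against 7.81 to 7.85). In that of arrest and feedback, 4 lay below and 2 above (8.12 to 9.41 against 8.68 to 8.93).

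Mdm2 read 8.72, 9.11, 8.66 and 9.03 in control skin and 9.15 to 9.63 (median 9.23) in the tumors. The groups did not overlap, but the difference was small, 0.46 with a 95% confidence interval of 0.16 to 0.76, and did not pass (adjusted p = 0.058), while 1 of its 3 probesets was called higher. Cdkn1a, the p21 inhibitor of cyclin-dependent kinases and the best known arrest target, read 10.67, 10.92, 11.47 and 10.79 in the controls and 8.51 to 11.66 (median 10.10) in the tumors. Of the tumors, 6 lay below all controls and poorly differentiated tumor 2 lay above all, so the groups overlapped. Its difference was -1.03 (95% interval -2.15 to 0.08, adjusted p = 0.24). Ccng1, cyclin G1, did fall. It read 11.71, 11.49, 11.33 and 11.55 in the controls and 8.78 to 10.65 (median 9.27) in the tumors, a difference of -2.04 ± 0.31 (SE, adjusted p = 0.00191), and all 7 tumors were below the controls.

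Gtse1, a G2 and S phase protein that is itself made in cycling cells, rose by 1.41 (adjusted p = 0.00603), and Plk2, a kinase of the polo family, by 1.48 (adjusted p = 0.0389). Plk2 read 8.16, 8.66, 8.22 and 8.65 in the controls and 8.68 to 10.86 in the tumors, so tumor 3 at 8.68 lay just above control skin 2. Its call was lost without any single control sample and without tumor 1, 2, 4 or 7 (adjusted p up to 0.119). Sfn, the 14-3-3 sigma protein of keratinocytes, read 10.40 to 10.84 in the controls and 5.74 to 12.18 in the tumors, a difference of -2.37 with an interval of -4.73 to -0.02 (adjusted p = 0.203). The mixed tumor 7 was above the controls and the other 6 below. Gadd45a differed by 1.45 (adjusted p = 0.176), and Btg2, Plk3, Ppm1d, Zmat3, Rchy1 and Mdm4 lay between -0.43 and 0.45 without passing.

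Among the apoptosis targets, Eda2r, a receptor of the tumor necrosis factor family, read 6.37, 6.50, 5.91 and 6.23 in control skin and 4.02 to 5.91 (median 4.52) in the tumors. The spindle tumor 6 all but met control skin 3, and the difference was -1.54 ± 0.34 (SE, adjusted p = 0.015), lost without control skin 1 or 2 (adjusted p up to 0.0544). Perp, a desmosome protein as well as a p53 target, read 12.64 to 12.92 in the controls and 12.30, 11.20, 10.13, 11.32, 12.05, 8.76 and 4.0 in tumors 2, 4, 5, 1, 7, 3 and 6. All tumors were below the controls, but the spread carried by tumors 3 and 6 was wide, and the difference of -2.80 had an interval of -5.78 to 0.18 (adjusted p = 0.237). The killer genes Bbc3 (Puma) and Pidd1 differed by 0.02 each, with intervals of -0.35 to 0.39 and -0.26 to 0.29. Pmaip1 (Noxa) differed by 0.97, Fas by -0.96 and Apaf1 by 0.50, and none of these passed.

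Of the metabolic targets, Pank1, which makes coenzyme A, read 8.85, 9.21, 9.46 and 9.07 in the controls and 6.40 to 7.70 (median 7.18) in the tumors. The groups lay more than 1 unit apart, all 4 probesets fell, and the difference was -2.01 ± 0.27 (SE, adjusted p = 0.000734). Tigar, which lowers glycolytic flux, fell by 1.62 on the log2 scale (adjusted p = 0.0175), although poorly differentiated tumor 4, at 7.02, nearly touched control skin 2 at 7.05 and the call was lost without control skin 1 or 3 (adjusted p up to 0.0637). The repair genes Ddb2, Xpc and Rrm2b differed by -0.07, -0.06 and -0.11 and did not pass.

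**Figure D2:**
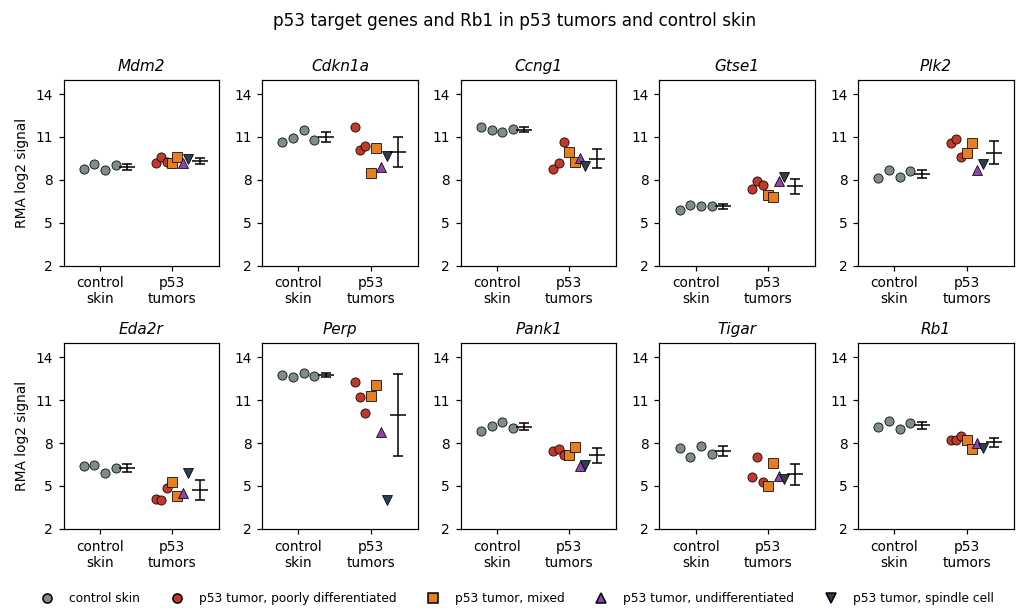
RMA log2 signal of 9 p53 target genes and of Rb1 in each sample, drawn as in the plot of changed genes. Ccng1, Eda2r, Pank1, Tigar and Rb1 lie lower in all tumors, Gtse1 and Plk2 lie higher, and Cdkn1a overlaps between the groups.

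Around the Rb pathway, of 19 genes of E2F factors, Rb proteins and G1 cyclins, 7 rose and 1 fell (median 0.88). Rb1, which is intact by design in these tumors, was the member that fell. It read 9.12, 9.54, 8.98 and 9.40 in control skin and 7.57 to 8.50 (median 8.20) in the tumors, which did not overlap, a difference of -1.20 ± 0.19 (SE, adjusted p = 0.00226). It was called from 1 of its 2 probesets. Ccnd1, cyclin D1, read 9.14, 9.29, 9.76 and 9.14 in the controls and 10.67 to 12.27 (median 11.08) in the tumors, and rose by 2.12 ± 0.34 (SE, adjusted p = 0.0026) on all 3 probesets. Myc rose by 1.34 (adjusted p = 0.00592) and Cdk4 by 1.32 (adjusted p = 0.0248, up to 0.0753 without any single control sample). None of 6 CDK inhibitor genes passed. Of these, Cdkn2a, which encodes p16 and p19Arf, read 4.66, 3.90, 4.89 and 3.57 in the controls and ran from 4.10 in tumor 5 to 9.09 in tumor 6. Tumors 5 and 1 were among the controls and the other 5 above them (difference 2.42, interval 0.38 to 4.46, adjusted p = 0.132).

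The programme of the upper epidermis fell in every tumor. Of 34 measured genes of the cornified envelope and suprabasal layers, 23 fell and none rose (median -4.96), where 7.93% of all genes fell. Of 13 lipid barrier genes 10 fell (median -2.07), and of 15 epidermal proteases and their inhibitors 8 fell and 1 rose (median -2.13). The member that rose was Slpi. The mean level of the cornified list was 9.81 to 9.97 in control skin and 4.71 to 7.66 in the tumors, the mixed tumor 7 being the highest.

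Krt77, a keratin of suprabasal epidermis and sweat ducts, had the largest fall of the epidermal genes. It read 13.49, 13.44, 13.85 and 13.63 in control skin 1 to 4, between 4.28 and 4.58 in 6 tumors, and 7.93 in tumor 7. The difference was -8.72 ± 0.64 (SE, 420-fold lower, adjusted p = 6.17e-06). Lce1c, a late cornified envelope protein, had the same shape, with 11.74 to 12.16 in the controls, 3.13 to 3.66 in 6 tumors and 7.31 in tumor 7 (difference -8.10, adjusted p = 3.12e-05). Its neighbour in the family, Lce1m, was low in all 7 tumors, at 3.11 to 3.54 against 11.17 to 11.57 (difference -8.00, adjusted p = 1.4e-11). Tumor 7 thus kept part of the signal of Krt77 and Lce1c and none of that of Lce1m beyond the range of the other tumors.

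Krt1, the main type II keratin of differentiating epidermis, read 12.44, 12.66, 12.78 and 12.74 in the controls. In the tumors it ran from 4.09 to 10.70 with a median of 4.35, tumor 7 again standing far above the others, and the difference was -7.11 ± 1.13 (SE, adjusted p = 0.00236). Lor (loricrin), the main protein of the cornified envelope, fell by 6.43 on the log2 scale (adjusted p = 7.8e-06), from 12.81 to 13.33 in the controls to 5.78 to 8.73 in the tumors. Krt10 fell by 5.07 (adjusted p = 0.00797), with tumors 2, 4 and 7 at 11.19 to 11.39 and the other 4 at 7.08 to 7.63. Barrier enzymes followed. Fa2h, a fatty acid hydroxylase, fell by 6.13 (adjusted p = 7.18e-09), Elovl4, which elongates very long chain fatty acids, by 6.07 (adjusted p = 0.00112), and Alox12b, a lipoxygenase of the barrier, by 4.0 (adjusted p = 1.37e-07). Of the proteases and inhibitors, Serpinb7 fell by 7.67, Spink5 by 6.34, the kallikrein Klk5 by 5.99 and cystatin Cst6 by 5.20, each with no overlap.

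**Figure D3:**
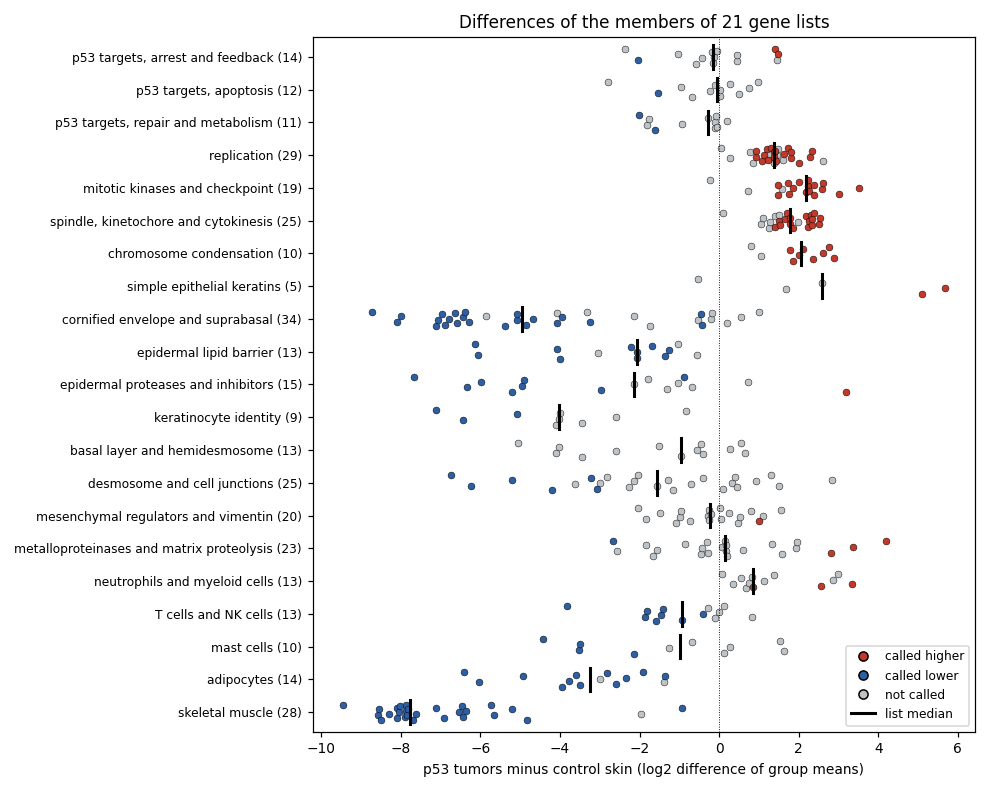
Difference between p53 tumors and control skin for each measured member of 21 gene lists, on the log2 scale; red and blue points passed the test as higher or lower, grey points did not, and the black line is the list median. Medians run from -7.76 for skeletal muscle to 2.58 for simple epithelial keratins, and those of the p53 target lists lie between -0.27 and -0.05.

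The label of squamous cell carcinoma was set against keratinocyte markers. The mean level of 9 measured keratinocyte identity genes was 12.05 to 12.25 in control skin, 11.96 in tumor 7, 10.19 in tumor 2, 9.49 in tumor 4 and 8.32 in tumor 1. It was 5.71 in the undifferentiated tumor 3, 5.08 in the spindle tumor 6 and 4.97 in tumor 5, although tumor 5 was labelled as poorly differentiated. Tumors 3, 5 and 6 thus lacked most of the keratinocyte signal. Only Krt1, Lor and Krt10 of these 9 genes passed the test, and the list median was -4.03. Genes of the basal layer varied widely between tumors, and why the other genes did not pass was not tested.

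Krt14 and Krt15, basal keratins, were among the 10 genes with the largest SD among the tumors. Krt14 read 12.90 to 13.18 in the controls and 12.93, 12.81, 4.41, 12.05, 13.59, 6.99 and 4.72 in tumors 2, 4, 5, 1, 7, 3 and 6. Tumors 1, 2, 4 and 7 were near or above control skin, and the other 3 were far lower. The difference of -3.45 did not pass (interval -7.67 to 0.78, adjusted p = 0.308). Krt5, the partner of Krt14, and Trp63, the transcription factor of basal epithelia, were lowest in the same 3 tumors, with tumor 5 at 4.76 and 3.84. Of the 13 measured genes of the basal layer and hemidesmosome none passed (median -0.95). The 15 measured genes that keratinocytes switch on under stress held 1 that rose and 1 that fell. The alarmin S100a8, also made by neutrophils, rose by 3.34 (adjusted p = 0.0404) with an overlap of tumor 5 (7.63) and control skin 4 (8.50), and the call was lost without control skin 1, 2 or 3 or tumor 1, 2, 3 or 4 (adjusted p up to 0.128). Il1f9, a cytokine of the interleukin 1 family, fell by 2.94 (adjusted p = 0.000395).

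Krt5, Trp63 and the genes of this paragraph other than Krt8 were picked after their values had been seen, to show how tumor 5 differed from tumors 3 and 6. Epcam, an adhesion molecule of epithelial cells, read 10.04 to 11.14 in control skin and 12.93 in tumor 5, but 6.87 in tumor 3 and 4.91 in tumor 6. Esrp1, an epithelial splicing factor, read 10.94 to 11.34 in the controls, 11.93 in tumor 5, 4.37 in tumor 3 and 3.97 in tumor 6. Tumor 5 thus had high epithelial signal with no basal keratin signal, while tumors 3 and 6 were low in both. E-cadherin, Cdh1, had the same order, with 10.62 in tumor 5 and 6.48 and 4.29 in tumors 3 and 6. Krt8, the partner of Krt18, read 5.23, 5.06, 6.64 and 5.03 in the controls, 5.37 in tumor 6 and 10.53 to 12.97 in the other 6 tumors. It rose by 5.11 ± 1.17 (SE, adjusted p = 0.0185), but tumor 6 lay within the controls. The call was lost without control skin 1, 2 or 4 (adjusted p up to 0.0609).

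The 3 poorly differentiated tumors shared further genes of glandular and simple epithelia, likewise chosen after their values were seen. Elf5, a transcription factor of secretory epithelia, read 10.20, 9.45 and 12.37 in tumors 2, 4 and 5 and 3.84 to 5.24 in the other 4, beside 4.79 to 5.72 in the controls. Krt7 read 11.49, 10.30 and 9.76 in these 3 tumors and 9.08 in tumor 1, against 4.68 to 5.0 in tumors 7, 3 and 6 and 5.03 to 5.47 in the controls. Csn2, beta-casein, had the largest SD of any gene among the tumors (4.22). It read 11.65, 8.75, 13.67 and 10.80 in tumors 2, 4, 5 and 3 and 3.34 to 4.36 in the other 3. It also read 9.83 in control skin 3, against 3.51 to 4.47 in the other controls. Csn1s1 read 10.93, 9.41, 13.01 and 8.71 in the same 4 tumors. None of the 15 mammary and salivary gland genes passed, their mean level running from 4.17 to 5.51 in control skin and from 4.31 to 8.41 in the tumors. How much such tissue a sample held was not tested.

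**Figure D4:**
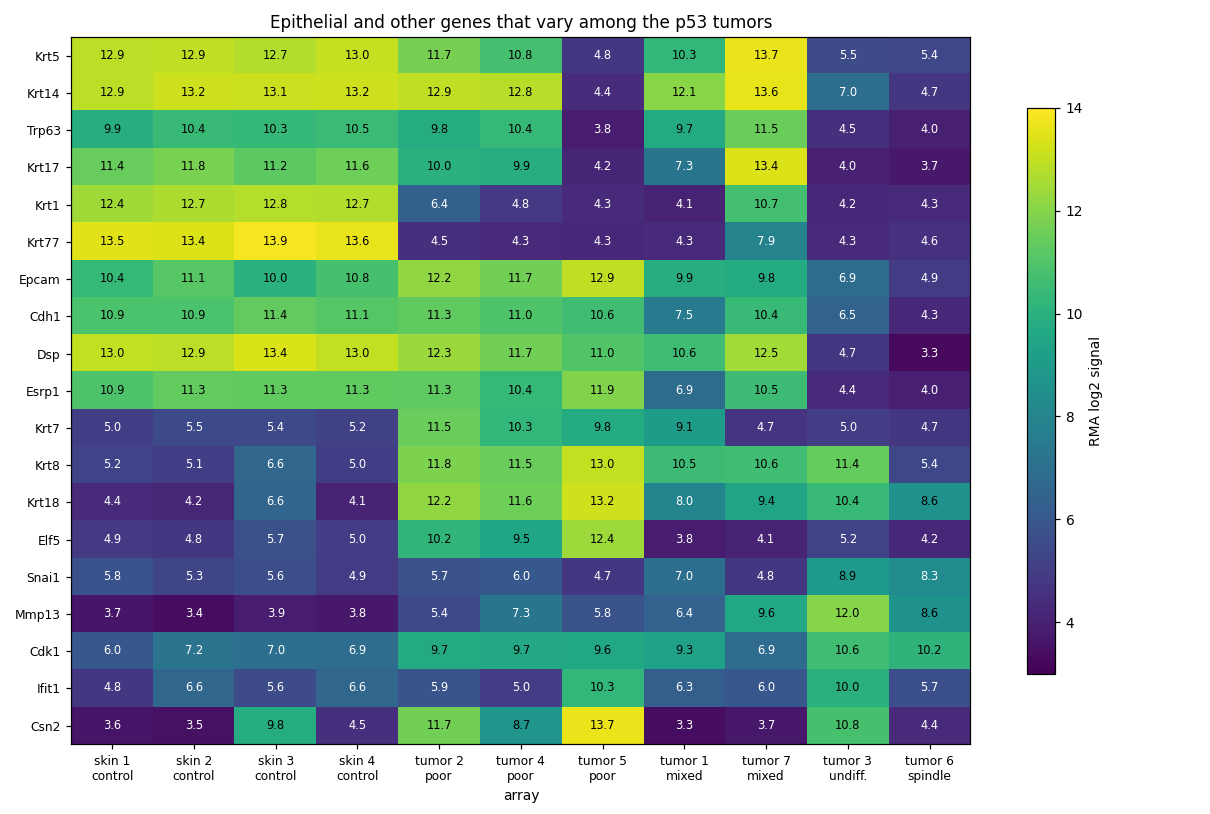
RMA log2 signal of 19 genes in each of the 11 samples, with the histological subtype of each tumor under its number; the colour scale runs from 3 to 14. Krt14 and Krt5 are low in tumors 5, 3 and 6, while Epcam, Cdh1 and Esrp1 stay high in tumor 5 and Elf5 is high only in tumors 2, 4 and 5 of these 11 samples.

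Of 25 measured desmosome and junction genes, 6 fell and none rose (median -1.56). With only the 3 poorly differentiated tumors against control skin, 7 were lower and 6 higher. Dsg1a, the desmoglein of the upper epidermis, read 10.93, 11.10, 11.17 and 11.45 in the controls and 3.13 to 7.34 (median 3.42) in the tumors, all of them lower, and fell by 6.75 (adjusted p = 0.000365). Dsc1, a desmocollin of the same layers, fell by 6.23 (adjusted p = 0.00233) and the gap junction gene Gjb5 by 4.19 (adjusted p = 0.00138). Dsc3 fell by 5.22 (adjusted p = 0.0435), yet tumor 7, at 11.71, was within the controls, and the call was lost without any single control sample and without tumor 1, 3, 4, 5 or 6 (adjusted p up to 0.108). Dsp, desmoplakin, was below the controls in all 7 tumors but only slightly so in tumor 7 (12.48 against 12.89 to 13.40), and far below in tumors 3 (4.72) and 6 (3.28). It did not pass (difference -3.63, interval -7.54 to 0.29, adjusted p = 0.243).

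Of 14 epithelial regulators 3 fell. Grhl3, a transcription factor of the barrier, fell by 3.17 (adjusted p = 0.0357), Ovol1 by 2.51 (adjusted p = 0.0267) and Klf5 by 1.37 (adjusted p = 0.0357). In each, tumors 2 and 4 were close to control skin, for example Grhl3 at 8.45 and 7.80 against 8.64 to 8.95, and without control skin 3 and p53 tumor 7 none of the 14 passed. Leaving out any single control sample also ended all 3 calls (adjusted p up to 0.0986), as did tumor 1 or 6 for Grhl3 and Klf5 and tumor 3 or 5 for Grhl3. The list as a whole split by tumor, its mean level being 9.20 to 9.93 in tumors 2, 4 and 5, above all controls at 8.67 to 9.01, and 5.23 to 7.63 in the other 4, below all controls. In tumors 2, 4 and 5 alone, 6 of the 14 genes were higher than in control skin and 1 was lower.

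Genes of the mesenchymal state did not move as a group. Of 20 such genes 1 rose and none fell (median -0.24), where 5.96% of all genes rose and 7.93% fell. The gene that rose was Tgfb1, which encodes a cytokine that induces the mesenchymal state, from 7.40 to 7.89 in the controls to 8.02 to 9.57 in the tumors (difference 0.99, adjusted p = 0.0425). Its call was lost without any single control sample and without tumor 2, 4, 6 or 7 (adjusted p up to 0.126). The mean level of this list was 8.49 to 8.91 in control skin, 9.10 to 9.62 in tumors 1, 3 and 6, and 7.06 to 8.17 in the other 4. Snai1, named after its values were seen, read 8.90 and 8.31 in tumors 3 and 6 and 4.73 to 6.98 in the other 5, beside 4.91 to 5.76 in the controls. With only the 3 poorly differentiated tumors set against control skin, 8 of the 20 genes were lower and 1 was higher.

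Of 23 genes of metalloproteinases and matrix proteolysis 3 rose and 1 fell (median 0.15), where 5.96% of all genes rose and 7.93% fell. Beside Mmp13 and Timp1, Adamts4, an aggrecanase, rose by 2.82 (adjusted p = 0.0258), from 4.98 to 6.27 in the controls to 6.34 to 10.42 in the tumors. Its relative Adamts5 fell by 2.66 (adjusted p = 0.000207), from 9.29 to 9.59 to 6.18 to 7.87, so the aggrecanases moved in opposite directions. None of the 3 rises passed without control skin 3 and p53 tumor 7, and in the poorly differentiated tumors alone 7 of the 23 were lower and 3 higher. Of 23 genes of collagens and crosslinking, Plod2 and the lysyl oxidase Loxl3 (2.29, adjusted p = 0.0353) rose and Col14a1 (-2.0, adjusted p = 0.0145) fell, while in the poorly differentiated tumors alone 7 were lower and 1 higher. Of 14 genes of wound matrix and activated fibroblasts, Tnc (tenascin C) rose by 3.53 (adjusted p = 0.043) and Thbs1 by 2.16 (adjusted p = 0.0239), while the proteoglycan Lum and the fibroblast protease Fap fell by 2.92 (adjusted p = 0.046) and 2.43 (adjusted p = 0.0306). Tnc was lowest in tumor 5 (6.70, within the controls at 5.97 to 7.22) and above 11 in tumors 3, 6 and 7. In the 14 wound genes no call was kept without control skin 3 and p53 tumor 7. The calls of Tnc, Lum, Fap and Loxl3 were lost without any single control sample (adjusted p up to 0.129, 0.128, 0.0915 and 0.0998). Single tumors also ended them, which were every tumor but 5 for Tnc, all but 1 and 3 for Lum, tumor 2 for Fap and tumors 3, 5 and 6 for Loxl3. The calls of Adamts4 without control skin 2, 3 or 4 (up to 0.0834), of Thbs1 without control skin 1 or 3 (up to 0.0713) and of Col14a1 without control skin 4 (0.0542) were lost as well.

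Markers of lymphocytes that reside in skin were lower. Among 13 T cell and NK cell genes, 8 fell and none rose (median -0.95). Cd3g, a chain of the T cell receptor complex, read 7.71, 9.04, 7.75 and 8.72 in control skin and 3.88 to 5.64 (median 4.11) in the tumors. It fell by 3.82 ± 0.40 (SE, 14.1-fold, adjusted p = 0.00013), with tumors 5 and 3 the highest. Skint10, a member of a family that selects the gamma delta T cells of the epidermis and is itself made by keratinocytes, fell by 7.40 (adjusted p = 1.15e-10). In each tumor it was between 2.91 and 3.34. The integrin Itgae fell by 2.25 (adjusted p = 0.00184). Of 16 genes in that list 5 were measured, and 3 of the 5 fell.

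Some markers of Langerhans cells and mast cells were also lower. Cd207, langerin, read 8.82, 9.77, 8.20 and 9.44 in control skin and 4.30 to 5.60 (median 4.88) in the tumors, and fell by 4.09 ± 0.33 (SE, adjusted p = 1.53e-05). Of 13 Langerhans and dendritic cell genes 3 fell (median -0.85), the others being the lectins Clec10a (-5.22, adjusted p = 7.28e-05) and Cd209a (-4.06, adjusted p = 0.00147). Of 10 mast cell genes 4 fell (median -0.98, differences up to 1.63). Those that fell included the carboxypeptidase Cpa3 by 4.43 (adjusted p = 0.000878) and the chymases Mcpt4 and Cma1 by 3.53 and 3.51. Control skin 3 was the lowest control in each of these genes, for example 6.37 for Cd209a against 9.10 to 10.35. The mean level of the mast cell list was below all controls in 5 of the 7 tumors, while tumors 1 and 3 (6.60 and 6.49) exceeded control skin 3 (6.29). Of 6 B cell genes 2 fell. Ighm fell by 2.28 (adjusted p = 0.00238), but only 2 of its 11 probesets were called lower. Blnk fell by 1.54 (adjusted p = 0.0321), with tumor 4 (9.40) among the controls. The call of Blnk was lost without any single control sample and without tumor 1, 2 or 6 (adjusted p up to 0.0963).

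Neutrophil and macrophage genes did not fall in this way. Of 13 neutrophil and myeloid genes 3 rose and none fell (median 0.85), and the mean level of the list was above all controls (4.88 to 5.17) in all 7 tumors (5.56 to 7.34). Clec4d, a lectin receptor of myeloid cells, read 4.30, 3.99, 4.18 and 4.35 in the controls and 5.57 to 8.39 (median 6.62) in the tumors. It rose by 2.56 ± 0.49 (SE, adjusted p = 0.00744), was highest in tumor 3, and did not overlap the controls. The others were S100a8, given above, and the collagenase Mmp8 (0.85, adjusted p = 0.0394), in both of which the groups overlapped. The call of Mmp8 was lost without any single control sample and without tumor 1, 2, 4 or 6 (adjusted p up to 0.121). Without control skin 3 and p53 tumor 7, 1 of the 13 genes rose. Of 14 macrophage genes 1 fell, where 7.93% of all genes fell. It was Cd163 (-2.47, adjusted p = 0.0136), a scavenger receptor that was also low in control skin 3 (7.05 against 9.41 to 9.78) and overlapped there with tumor 4 (7.71). The call of Cd163 was lost without control skin 1, 2 or 4 (adjusted p up to 0.0557). The mean level of the macrophage list was 8.07 to 10.08 in control skin, 9.89 to 10.29 in tumors 1, 3 and 6 and 7.75 to 8.42 in the other 4.

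Of 29 chemokine and interleukin genes 3 rose and 4 fell (median 0.12), where 5.96% of all genes rose and 7.93% fell. The rises other than Cxcr4 were the chemokines Cxcl1 and Ccl3, by 0.68 each (adjusted p = 0.00995 and 0.0265). Without each array in turn, from 2 to 5 genes of the list rose. Cxcr4 kept its call throughout, so Cxcl1 and Ccl3 did not both keep theirs. Il1r2, a decoy receptor for interleukin 1, fell by 3.52 (adjusted p = 0.0255), Cxcl12, the ligand of Cxcr4, by 2.61 (adjusted p = 0.0404) and Il18 by 2.29 (adjusted p = 0.00933). Cxcl12 read 10.74 to 11.22 in the controls and 6.71 to 10.66 in the tumors. The ligand was lowest in the poorly differentiated tumors 2, 4 and 5 (6.71 to 7.37), where its receptor Cxcr4 spanned 7.48 to 10.68. The calls of Il1r2 and Cxcl12 were lost without any single control sample (adjusted p up to 0.0872 and 0.118), and that of Cxcl12 also without tumor 1, 2, 4 or 5. Of 17 interferon-induced genes only Xaf1 passed (median 0.84), but their mean level was 9.91 and 9.68 in tumors 5 and 3, against 6.77 to 7.19 in control skin and 6.32 to 7.31 in the other 5 tumors. Xaf1 was also highest in tumors 5 (11.41) and 3 (10.58).

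Skeletal muscle gave the largest falls of all. Of 28 muscle genes 27 fell, with a median of -7.76, and it supplied 9 of the 12 genes with the largest falls. The other 3 were Krt77, Lce1c and Myot, which encodes a protein of the muscle Z-disc but was not on the list. Myh4, the heavy chain of fast myosin, read 13.40, 13.12, 12.94 and 12.86 in control skin and 3.39 to 3.88 (median 3.58) in the tumors. It fell by 9.46 ± 0.13 (SE, 704-fold, adjusted p = 1.4e-11), and no tumor came near the controls. Neb (nebulin) fell by 8.57, the troponins Tnnc2 and Tnnt3 by 8.55 and 8.29, Myl1 by 8.51 and the calcium pump Atp2a1 by 8.10. Tumors 5 and 7 were the highest tumors in several of these genes. Myh1, another heavy chain of fast myosin, read 9.25 in tumor 7 and 6.98 in tumor 5 against 3.0 to 4.08 in the other 5, and Myl1 read 6.23 and 6.38 in the same tumors against 4.13 to 4.66. The mean level of the list was 12.15 to 12.42 in control skin and 4.96 to 6.28 in the tumors, tumor 7 being the highest. Muscle is a layer beneath normal mouse skin, and its part in the other falls was not tested.

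Adipocyte and sebaceous gland genes were also lower. Of 14 adipocyte genes 12 fell (median -3.24). Adipoq, adiponectin, read 12.02, 12.60, 9.10 and 12.39 in control skin and 4.35 to 7.69 (median 4.91) in the tumors, a difference of -6.04 ± 0.82 (SE, adjusted p = 0.000863). Control skin 3 was the lowest control and tumor 2 the highest tumor. Car3 fell by 6.41 (adjusted p = 0.000209), the lipid droplet gene Plin4 by 4.92 (adjusted p = 3.06e-06) and lipoprotein lipase Lpl by 3.96 (adjusted p = 6.29e-05). Of 9 sebaceous gland genes 5 fell, led by Far2 (-6.87, adjusted p = 2.59e-09) and Elovl3 (-4.60, adjusted p = 2.91e-07). Of 10 melanocyte genes 3 fell, Dct by 3.12, Mlana by 2.62 and Tyrp1 by 1.06 (lost without control skin 4, adjusted p = 0.0869). Of 6 Schwann cell genes Pmp22 and Mbp fell by 2.43 and 1.35, and both calls were lost without any single control sample (adjusted p up to 0.0594 and 0.1), that of Mbp also without tumor 1, 3, 6 or 7. Of 9 smooth muscle genes 3 fell, but Synpo2 and Des are also made in skeletal muscle, and Myh11 alone is particular to smooth muscle (-3.41, adjusted p = 0.00131).

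Few hair and vessel genes passed the test, where 5.96% of all genes rose and 7.93% fell. The mean level of the hair shaft list was already low in control skin, at 4.69 to 4.90. That of the hair follicle stem cell list was 8.31 to 8.70 in the controls. It lay below all controls in 6 of the 7 tumors and above them in tumor 7, at 9.18. Of 19 hair shaft genes 1 fell, Foxn1 (-0.86, adjusted p = 0.000332), and of 14 genes of hair follicle stem cells 2 fell, Fgf18 (-3.34, adjusted p = 7.53e-05) and Nfatc1 (-2.52, adjusted p = 0.019, up to 0.0658 without control skin 1, 2 or 4). Of 13 endothelial genes 1 fell and 1 rose. Tek, the receptor for angiopoietins, fell by 2.72 (adjusted p = 0.00073), from 7.86 to 8.42 in the controls to 4.55 to 6.64 in the tumors. Angpt2, the ligand that antagonises it, rose by 1.24 (adjusted p = 0.00305), from 5.79 to 6.23 to 6.78 to 7.98, and no tumor overlapped the controls in either gene.

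Genes of oxygen and energy use split. Of 19 genes of hypoxia and glycolysis 5 rose and 1 fell (median 0.94). Vegfa, the growth factor of vessels, rose by 1.96 (adjusted p = 0.0156), Hif1a, the oxygen-regulated factor, by 1.09 (adjusted p = 0.0145), Pgk1 and Pkm, enzymes of glycolysis, by 1.03 and 0.83, and Pfkl, the liver form of phosphofructokinase, by 2.11 (adjusted p = 0.00451). Hif1a did not pass without control skin 1 (adjusted p = 0.0543), nor Vegfa without control skin 1 or 3 (up to 0.0546). The member that fell was Aldoa, the aldolase that is abundant in muscle (-1.13, adjusted p = 0.00986). Of 20 genes of mitochondrial respiration 6 fell (median -0.40), and the 3 with the largest falls, Cox8b, Cox6a2 and Cox7a1 (-5.86, -5.28 and -4.90), are the cytochrome oxidase forms of muscle and brown fat. The others, Ndufs1, Ndufs7 and Uqcrc1, fell by 0.73, 0.96 and 0.62. Without each array in turn, from 5 to 7 genes of the list fell. Ndufs7 and the 3 Cox genes kept their calls throughout, so Ndufs1 and Uqcrc1 did not both keep theirs. Of 12 measured EGF receptor and ligand genes 3 fell, the ligands Btc by 3.31 (adjusted p = 3.14e-05), Egf by 1.92 (adjusted p = 0.000104) and Nrg4 by 1.16 (adjusted p = 0.0012).

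**Figure D5:**
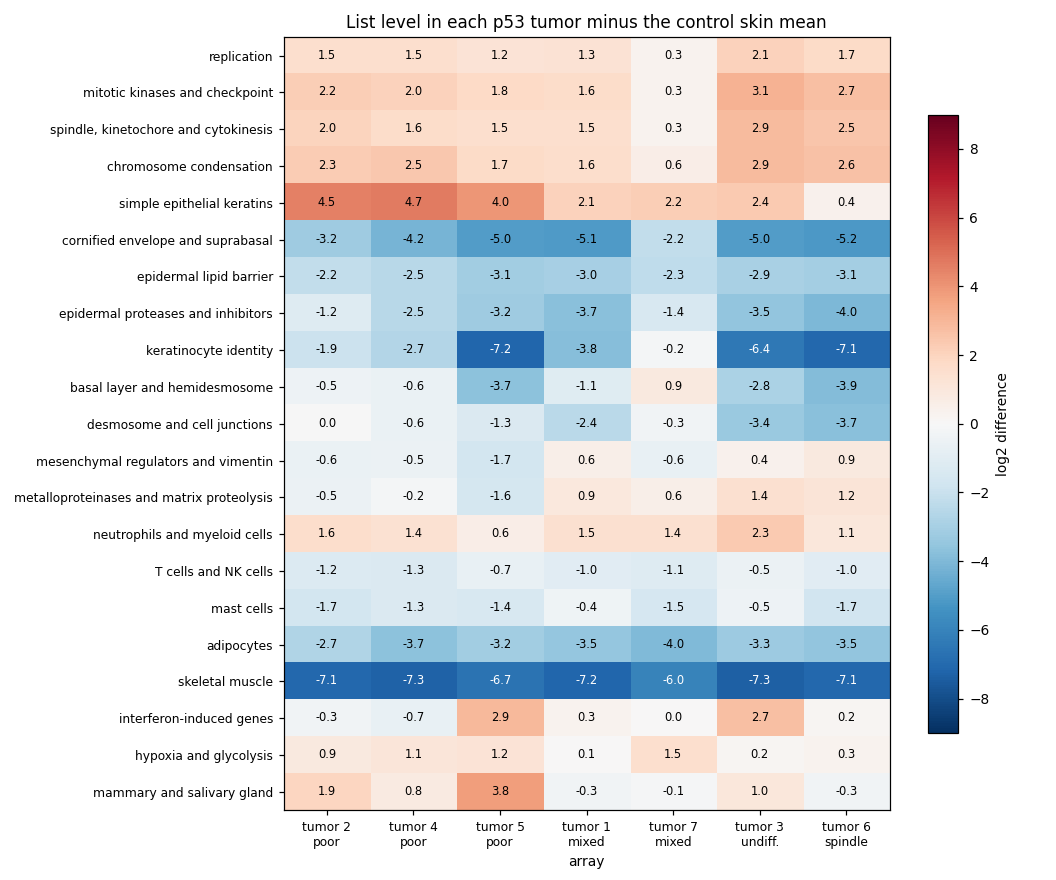
Mean log2 level of each of 21 lists in each p53 tumor, minus the mean of the 4 control samples; columns are ordered by histological subtype, and red is higher and blue lower than control skin. Skeletal muscle and the cornified list are blue in all tumors, the cell cycle lists are palest in tumor 7, and keratinocyte identity is lowest in tumors 5, 6 and 3.

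The spread among the tumors was itself large. The 10 genes with the largest SD were Csn2, Krt14, Wif1, Krt15, Dsp, Csn1s1, Krt17, Krt79, Csn1s2a and Dmkn, which are milk proteins, keratins and epidermal genes plus Wif1, a secreted inhibitor of Wnt signals. None of them passed against control skin. Wif1 read 11.54, 11.52 and 8.66 in tumors 2, 4 and 7 and 3.0 to 3.39 in the other 4, on both sides of the controls at 5.84 to 7.30. Its difference was -0.30, with an interval of -4.53 to 3.93. Krt79 was high in tumors 2 and 4 (13.20 and 12.43, with controls at 11.39 to 12.40) and low in tumors 5, 1, 3 and 6 (4.43 to 5.40). Dmkn, dermokine, was lower in all tumors by a difference of -5.87 that just missed the threshold (interval -9.64 to -2.09, adjusted p = 0.0527). Krt17 was above the controls in tumor 7 (13.44 against 11.23 to 11.79) and below them in the other 6.

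The p53 tumors were set against the 5 pRbp53 tumors, of which 4 were spindle cell carcinomas and 1 was mixed, while the p53 tumors held 1 spindle and 2 mixed tumors. Histology thus differed along with genotype, in part, and its share in these differences was not tested. Between the tumors, 179 probesets (0.397%) differed at an adjusted p of 0.05, 117 of them higher and 62 lower in the pRbp53 tumors, in 72 genes. Of the members of all the lists named here, Itga6, Col6a2 and Cd2 passed, the last 2 of them losing the call without 7 and 8, in that order, of the 12 tumors left out 1 at a time (adjusted p up to 0.1 in both). Itga6, the integrin of the hemidesmosome, was lower in pRbp53 tumors by a difference of -2.13 (adjusted p = 0.00289), and read 10.11 to 11.78 in the p53 tumors. No p53 target gene and no cell cycle gene of the lists passed. Rb1 itself differed by -0.36 between the genotypes and did not pass (adjusted p = 0.477).

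Both comparisons use the same 7 p53 tumors, so their values enter both, with opposite signs. Some genes moved from control skin in the p53 tumors and differed again between the genotypes. Sgce, a sarcoglycan, read 8.31, 8.50, 7.86 and 8.18 in control skin and 4.53 to 7.02 in the p53 tumors, fell by 2.59 (adjusted p = 0.0012), and was higher by 3.21 in the pRbp53 tumors (adjusted p = 0.00853). Zfp521 (-2.54, adjusted p = 0.0478), Angptl1 (-3.94, adjusted p = 2.17e-05) and the imprinted transcript Meg3 (-2.80, adjusted p = 0.00237) also fell, and were higher in the pRbp53 tumors by 3.55 (adjusted p = 0.031), 2.78 (adjusted p = 0.0454) and 2.75 (adjusted p = 0.0305). The genotype call of Sgce held without each tumor in turn but was lost in 3 of 17 alternatives. Those of Zfp521, Angptl1 and Meg3 hung on single tumors. That of Zfp521 was lost without p53 tumor 4, 5 or 7 or pRbp53 tumor 1, 2 or 3 (adjusted p up to 0.0653), that of Angptl1 without p53 tumor 2, 3, 4, 5 or 7 or pRbp53 tumor 1, 3, 4 or 5 (up to 0.0989), and that of Meg3 without p53 tumor 2 or 5 or pRbp53 tumor 1, 3 or 5 (up to 0.0844). For Zfp521 tumor 6 (7.92) lay above the controls. In the other direction, the phosphatase gene Mtm1 and the homeobox gene Irx1 rose in the p53 tumors by 2.18 (adjusted p = 0.00734) and 1.57 (adjusted p = 0.0209) and were lower in the pRbp53 tumors, by differences of -3.02 (adjusted p = 0.0146, but 0.0506 without pRbp53 tumor 3) and -2.48 (adjusted p = 0.00904). Lgals7, galectin 7 of stratified epithelia, fell by 2.75 (adjusted p = 0.0463) in the p53 tumors and differed by a further -4.08 in the pRbp53 tumors (adjusted p = 0.01). The calls of Zfp521 and Lgals7 against control skin were lost without any single control sample (adjusted p up to 0.133 and 0.125), Zfp521 also without tumor 1, 2, 3, 4, 5 or 7 and Lgals7 without tumor 1, 3, 4 or 5, and that of Irx1 without control skin 2 or 4 (up to 0.0744). The transcription factors Tfap2a, Irx2 and Irx5 did not pass against control skin in the p53 tumors but were lower in the pRbp53 tumors, by differences of -3.06 (adjusted p = 0.031), -2.44 (adjusted p = 0.031) and -2.43 (adjusted p = 0.00809). The genotype call of Tfap2a was lost without p53 tumor 2, 4, 5 or 7 or pRbp53 tumor 2 or 5 (adjusted p up to 0.0878), and that of Irx2 without p53 tumor 2, 4 or 5 or pRbp53 tumor 1, 2, 3 or 5 (up to 0.0877). Those of Irx1, Irx5 and Lgals7 held without each tumor in turn, but each was lost in 2 of 17 alternatives.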

How the data were processed

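RNA of each skin or tumor sample was hybridised to 1 Affymetrix mouse array. The authors deposited RMA log2 signals, that is background-corrected, quantile-normalized between arrays and summarised per probeset (per the labels; the version was not given in the sources used here). Quantile normalization presumes alike signal distributions, and RMA compresses differences at low signal. Values ran from 2.41 to 14.46. After removal of 64 array control probesets, the 45037 others were fitted with limma 3.58.1 in R 4.3.3 (lmFit and eBayes) on the 7 p53 tumors and 4 control samples, with Benjamini-Hochberg adjustment and a threshold of 0.05. All 16 arrays in 3 groups gave the contrast of pRbp53 and p53 tumors. Of the probesets, 34945 had 1 gene symbol, 932 several and 9160 none in the array annotation of 2016, and 34741 matched a gene ID of RefSeq (GRCm38.p6), whose symbol was used. Each gene took the values of whichever of its probesets was brightest on average across the 16 arrays, which gave 18193 genes. A call need not hold on the other probesets of a gene. Among others, 1 of 4 probesets was called for Hif1a and 1 of 3 each for Cxcl12, Col14a1 and Klf5. For Brca1 it was 2 of 4, and for Bub1 and Angpt2 1 of 2 each. The fit was tested on simulated data.

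The members and the 46 gene lists (675 genes measured) were chosen with earlier results of these data known. List members without a probeset were not analysed here. Genes to name were taken by a rule. It took the 12 genes with the largest non-overlapping called differences each way, all measured p53 targets and Rb1. It also took up to 4 called members of each other list (1 where none was called). The 10 genes with the largest SD among tumors and up to 10 genes each way between genotypes completed it. The text prints only part of these genes, and leaves out some p53 targets and some genes of the genotype comparison. Any other gene named, such as Cdc20, Ttk, Cxcl1, Ccl3 and Uqcrc1, was chosen after its values were seen. Promoter sequences are RefSeq's. The deleted gene is not reported here. The number of arrays limits the precision. Alternatives were other tests, thresholds, scalings, covariates and probeset rules, and each array left out in turn.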

Additional observations from a re-analysis of the deposited data

Results flagged for a closer look

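In 490 groups of 4 controls or 7 tumors, for list levels and named genes, 1 sample stood away from the rest of its group in 39 by Dixon's ratio of gap to range, and chance alone flags about 1 in 20 groups. Control skin 1 was lowest in the mean levels of mitotic kinases (0.839), spindle genes (0.880), condensation (0.918), the 20-gene signature (0.889), junctions (0.850) and epithelial regulators (0.912), and in Birc5 (0.888), Krt14 (0.831) and Sfn (0.961). Control skin 3 was highest in simple epithelial keratins (0.840), Csn1s2a (0.880), Csn2 (0.848), Krt18 (0.884), Krt8 (0.875) and Stard10 (0.831), and lowest in mitochondrial respiration (0.915), Adipoq (0.834), Cd163 (0.864), Lpl (0.892) and Polk (0.838). Control skin 4 was highest in Plk3 (0.872).

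Among the tumors, tumor 7 was highest in Des (0.877), Klk5 (0.773), Krt1 (0.649), Krt77 (0.919), Lce1c (0.872), Lor (0.692) and Synpo2 (0.671), and lowest in Birc5 (0.577), Cdk1 (0.646) and Dut (0.622). Tumor 5 was highest in Cox7a1 (0.755), Kcnn4 (0.601) and Ndufs7 (0.573), and tumor 1 in Angptl1 (0.685) and Ms4a2 (0.622). Tumor 6 was lowest in Krt8 (0.678) and Perp (0.573), and tumor 4 in Cox6a2 (0.751).

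Genes called against control skin that also differed between the genotypes, by the test of pRbp53 minus p53 tumors, were Angptl1 (2.78), Meg3 (2.75), Sgce (3.21) and Zfp521 (3.55), which were higher in pRbp53 tumors, and Irx1 (-2.48), Lgals7 (-4.08) and Mtm1 (-3.02), which were lower. Leaving out 1 tumor at a time ended the genotype call of Angptl1 in 9 cases (adjusted p up to 0.0989), of Zfp521 in 6 (up to 0.0653), of Meg3 in 5 (up to 0.0844) and of Mtm1 in 1 (0.0506).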

How the results depend on the processing

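Of 4592 values of the 144 called named genes under 32 alternatives, 3865 kept the direction and the call and 727 kept the direction but lost the call, and 99 of the 144 genes kept the call without each array in turn. Among genes not called, 21 passed in some alternative, and Irx5, at -0.09, reversed with the poorly differentiated tumors only, to 0.74 (adjusted p = 0.0244 in limma). Against control skin, 4800 probesets and 2526 genes were called, 2081 of the genes without overlap and 253 of them members of the lists. In that order, the counts were 2093, 1180, 1161 and 146 at an adjusted p of 0.01. The methods' t-test at their threshold gave 15, 9, 9 and 4 with unequal variances and 64, 46, 46 and 18 with equal variances, none of them higher. The study set that threshold on other and more numerous arrays, with tumors of both genotypes, and added a second test. These counts are therefore not comparable with its own. A log2 difference of at least 1 gave 3038 probesets and 1673 genes, array weights 9614 and 4698, and control skin 2 and 4 averaged 3057 and 1651. With the poorly differentiated tumors only, 3484 genes were called without overlap. Without each array in turn the counts ran from 2776 to 5960, 1476 to 3030, 1436 to 2666 and 167 to 291, lowest without control skin 1 and highest without p53 tumor 7. Without control skin 1, 862 probesets were higher and 1914 lower. The 179 probesets of the genotype comparison became 19 by the methods' t-test with unequal variances, 57 with tumors only and 468 at an adjusted p of 0.1, and ran from 84 without p53 tumor 2 to 381 without p53 tumor 6. Except where a setting tests fewer samples or a stricter threshold, the cause was not tested.

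Samples share replicate numbers. Deviations were correlated over 0.1 in 1 of 4 same-number pairs of control skin and p53 tumor, and in 3 of 13 such pairs in all. The highest correlation was 0.25. Pairs with different numbers were not examined, so whether the numbers pair samples was not settled, and the main fit did not pair them. With the replicate block 3472 probesets and 1879 genes were called, 1285 of the genes without overlap, and 236 list members and 207 probesets between genotypes.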
